A study of Mus musculus with 6 samples.

Results

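The lysosome is the acidic compartment in which cells break down proteins, lipids, glycans and glycogen. Its soluble hydrolases are made in the endoplasmic reticulum, sorted through the Golgi apparatus and active only at low pH, which a proton pump (the V-ATPase) maintains. Heavily glycosylated membrane proteins line the compartment, and the transcription factors Tfeb and Tfe3 act on many lysosomal genes through a CACGTG-containing promoter element. In macrophages, which monocytes become in M-CSF, the lysosome is large and digests ingested material.

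A set of 35 lysosomal genes, of 19500 genes tested, was examined. It consisted of 16 hydrolases, 3 lumenal cofactors, 6 membrane proteins, 8 subunits or accessory proteins of the proton pump and 2 transcription factors. Members were taken by name from the array: any non-control probe whose gene name was one of the 35 symbols, which gave 76 of 56605 probes. All 35 genes passed the filter on dim probes, and the probe that represented each was well above background on all 6 arrays.

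The samples were 3 treated with 100 U of mouse IFN-beta, a type I interferon, and 3 controls without it. The cells of both groups were magnetically isolated bone marrow monocytes of C57BL/6J mice aged 6-8 weeks. Both groups also shared M-CSF, a macrophage growth factor given at 20 ng/mL for the 60 h of culture. RNA of each sample was hybridised to 1 single-colour Agilent array. Whether replicates were separate mice is not given, so a p-value here reflects the spread among these 6 samples, which may be technical, and so few arrays limit the precision.

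The arrays fell into 3 sets. Controls 1 and 2 were nearly alike across genes (r = 0.9936), whereas control 3 correlated at 0.9635 to 0.9655 with IFN-beta arrays and at only 0.9568 and 0.9561 with controls 1 and 2. The summed signal of 17 fibroblast markers, in units of each array's 75th percentile, was 3.13 to 3.69 on IFN-beta arrays, against 643 and 739 on controls 1 and 2 and 2.11 on control 3. On control 3, 10 of the 17 were not above background, and 7 of the 17 were not above background on any IFN-beta array. Markers of basophils and mast cells also differed, with a summed signal of 68.4 to 101 on IFN-beta arrays and 7.14 to 12.1 on controls, and all 8 of these genes passed the test. For 12 neutrophil markers the sum was 987 to 1220 on IFN-beta arrays, against 535 to 728 on controls. All 10 monocyte markers lay above background on every array, with a summed signal of 1000 to 1050 on IFN-beta arrays and 526 to 742 on controls. Ly6c2, the brightest of the 10 on IFN-beta arrays, was at 8.57 to 8.68 there (log2) and at 5.59 to 5.99 on controls. The 10 did not move together, with 2 called higher and 2 lower. On every IFN-beta array, 3 were higher than on any control and 3 (Itgam, Cx3cr1 and Ccr2) were lower. The sum of 7 markers of plasmacytoid dendritic cells was 128 to 161 on IFN-beta arrays and 80 to 88.7 on controls. Of these 7, 4 were called higher, whereas Siglech and Tcf4 were lower on every IFN-beta array than on any control. Bst2, the brightest of the 7 on IFN-beta arrays, was at 5.98 to 6.58 there (log2) and at 3.26 to 3.92 on controls. The higher sum therefore rested largely on Bst2 and does not stand for the 7 as a set. Further, all 8 interferon-induced marker genes were higher on each IFN-beta array than on any control. In RNA from whole cultures, fewer cells of a type and less RNA per cell cannot be told apart. The part of these other cells in the results below was not tested. Results are given for all controls, without control 3 and against control 3 alone.

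Levels are log2 processed signals minus the 75th percentile of the array, so a level compares a gene with itself across arrays and not with another gene. Of the 35 genes, Npc2 and Neu1 rose and Galc and Scarb2 fell with IFN-beta, and 31 did not pass the test (limma, adjusted p under 0.05 over all genes). The share called was therefore 11.4%, against 19.8% of all genes tested. In the separate directions, 11.8% of all genes were called higher and 8.04% lower. The median log2 fold change was 0.28 over the 35 genes and 0.10 over all genes. Of the 35 values, 26 were positive and 9 negative (74.3% positive, against 58.1% of all genes). The IFN-beta and control arrays did not overlap for 12 of the 35 genes, 10 of them higher with IFN-beta, whereas 40.1% of all genes had groups that did not overlap (23.4% with IFN-beta above).

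**Figure D1:**
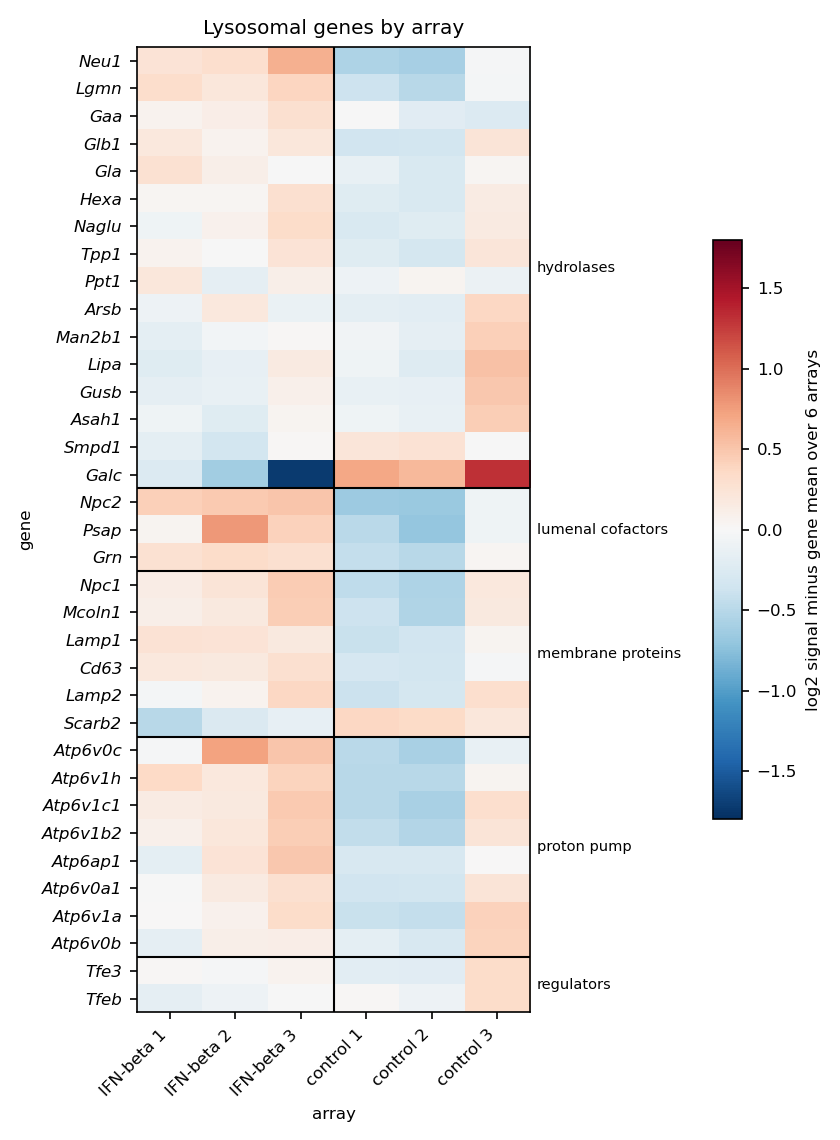
Log2 signal of each of the 35 genes on each array (columns, IFN-beta arrays left and controls right), minus the gene's mean over the 6 arrays, ordered by class and then by fold change. All 8 pump genes are higher on control 3 than on controls 1 and 2, as are 31 of the 35 genes.

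The counts changed with the choice of controls. With controls 1 and 2 only, 17 genes were called higher and 2 lower, or 48.6% higher and 5.71% lower, against 33.1% higher and 15.1% lower of all genes, and the median log2 fold change was 0.47 against 0.22 for all genes. Without control 3, 48.2% of all genes were called in either direction. Set against control 3 alone, none of the 35 genes was called by limma (4 at an unadjusted p under 0.05), while 9.55% of all genes were (5.22% higher and 4.33% lower). The median of the 35 was then -0.03, against -0.10 for all genes, with 16 positive and 19 negative (45.7% positive, against 41.6% of all genes). Of the 17 genes called higher without control 3, 12 were positive against control 3 and 5 negative, in a range of -0.28 to 0.55.

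Control 3 itself lay above both other controls for 31 of the 35 genes and below both for 4, against 73.9% and 19.9% of all genes. Its difference from the mean of controls 1 and 2 had a median of 0.53 over the 35 genes and of 0.35 over all genes, a value with no test. It was largest for Atp6v1c1 (0.84) and Atp6v1a (0.83), both pump subunits, and negative for Gaa (-0.14), Smpd1 (-0.24), Scarb2 (-0.16) and Ppt1 (-0.09). For 25 of the 35 genes control 3 was above the lowest IFN-beta array, which held for 71.4% of all genes. Spread among controls exceeded that among IFN-beta arrays for 28 genes, with a median SD of 0.16 on IFN-beta arrays and 0.31 on controls.

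**Figure D2:**
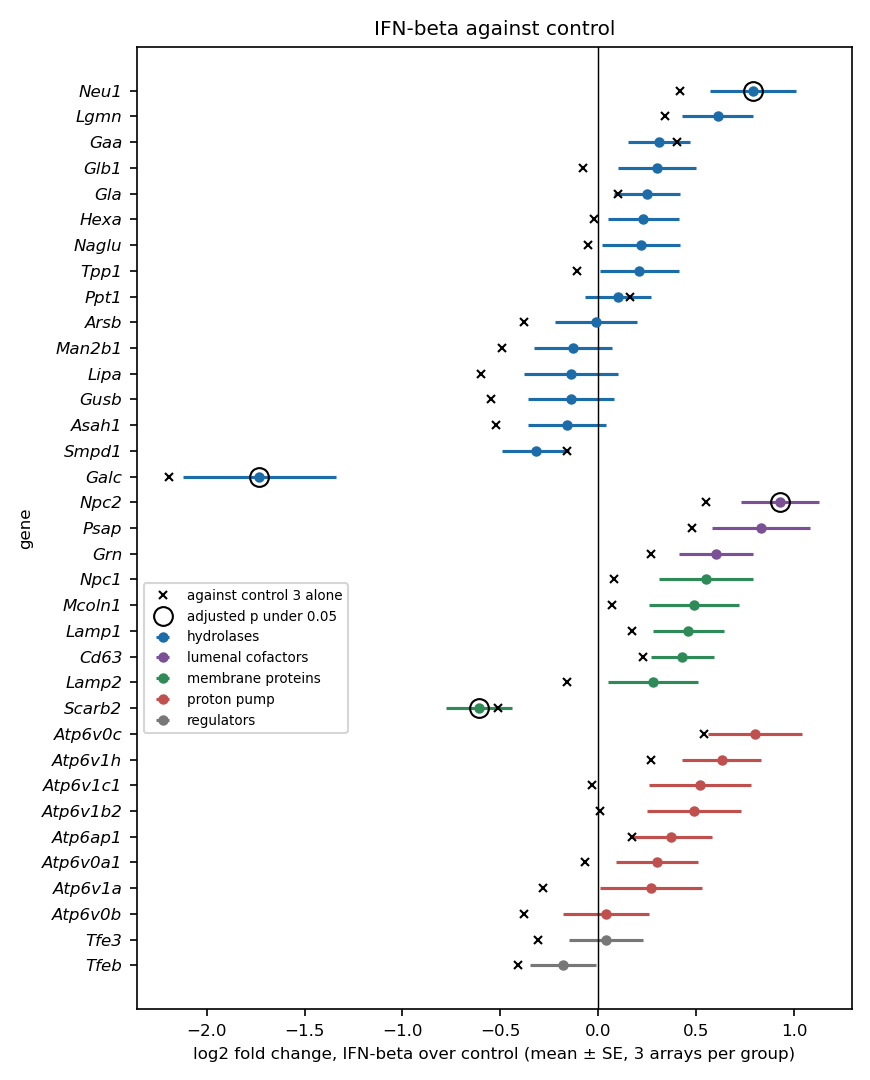
Log2 fold change of IFN-beta over control for each of the 35 genes (points with standard errors, 3 arrays per group), coloured by class, with the value against control 3 alone as a cross. Circles mark Neu1, Npc2, Galc and Scarb2, the genes that passed the test, and the crosses of 4 of the 8 pump genes lie below 0.

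Promoter sequences were searched for CACGTG, the sequence contained in the element through which Tfeb and Tfe3 act. RefSeq promoters (GRCm38.p6, from 250 bases before to 50 after the start) were at hand for 30 of the 35 genes, and 9 of the 30 (30.0%) held CACGTG, a palindrome that reads the same on both strands. Across all genes with a promoter there, 8.09% held it. The longer form GTCACGTG, searched on both strands and containing CACGTG, was found in 7 of the 30, against 2.55% of all genes. The 10-base palindrome that extends it by AC at the 3′ end was found in 0 of the 30, against 0.37% of all genes. The core of the interferon-stimulated response element, searched on both strands as GAAA, any 2 bases and GAAA, was found in 1 of the 30, that of Lamp1, against 3.99% of all genes. The stretches below are printed 5′ to 3′ on the strand of the gene, with each CACGTG in capitals, and hold only bases before the start.
Lamp1, chr8:13159088-13159160, plus strand: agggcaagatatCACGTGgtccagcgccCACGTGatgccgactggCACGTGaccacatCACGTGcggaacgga
Mcoln1, chr8:3500436-3500491, plus strand: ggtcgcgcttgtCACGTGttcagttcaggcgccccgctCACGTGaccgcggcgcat
Gla, chrX:134601182-134601244, minus strand: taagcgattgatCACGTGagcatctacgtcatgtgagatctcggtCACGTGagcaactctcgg
Atp6v0b, chr4:117887330-117887377, minus strand: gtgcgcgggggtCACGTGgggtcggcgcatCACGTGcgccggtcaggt
Glb1, chr9:114401018-114401047, plus strand: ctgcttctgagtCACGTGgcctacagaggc
Naglu, chr11:101070009-101070038, plus strand: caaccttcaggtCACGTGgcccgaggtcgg
Lgmn, chr12:102439124-102439153, minus strand: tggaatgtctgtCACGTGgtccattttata
Gaa, chr11:119267811-119267840, plus strand: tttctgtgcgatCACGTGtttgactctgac
Atp6v1a, chr16:44139373-44139402, minus strand: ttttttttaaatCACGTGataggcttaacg

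Lamp1 carried 4 copies, at positions -61 to -15 relative to its start, and Mcoln1, Gla and Atp6v0b carried 2 each. None of these 9 genes passed the test with IFN-beta, where 19.8% of all genes did. Their log2 fold changes ran from 0.04 to 0.61, with a median of 0.30, all of them positive, as were 58.1% of all genes. Against control 3 alone they ran from -0.38 to 0.40, 5 of 9 positive, against 41.6% of all genes. Without control 3, 5 of the 9 were called, and 10 of the 21 genes with a promoter and no CACGTG in this window, against 48.2% of all genes. Over all controls those 21 genes had a median of 0.21, with 13 positive, and included the 4 genes that were called. Against control 3 alone 8 of the 21 were positive. A match is a description of the letters and no evidence of binding.

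The transcription factors themselves did not pass the test. Tfeb stood at -0.03, 0.03 and 0.12 on IFN-beta 1, 2 and 3, against 0.15, 0.04 and 0.46 on controls 1, 2 and 3. The groups overlapped, control 3 being the highest array, and the log2 fold change was -0.18 ± 0.17 (SE, adjusted p = 0.503, limma). Tfe3 was at 4.88, 4.84 and 4.93 on the IFN-beta arrays and at 4.68, 4.66 and 5.19 on the controls, a log2 fold change of 0.04 ± 0.19 (adjusted p = 0.909). Both were lower with IFN-beta than on control 3, by values of -0.41 and -0.31 on the log2 scale. Without control 3 they were at -0.06 and 0.21, and the sign of Tfe3 depended on the controls and the scaling used.

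Among the 16 hydrolases, Neu1 rose, Galc fell and 14 did not pass the test, with a median log2 fold change of 0.16. Neu1 encodes the lysosomal sialidase, which removes terminal sialic acids from glycoproteins and glycolipids. Its probe (chromosome 17, 35072105 to 35072164, mm9) stood at 5.43, 5.48 and 5.82 on IFN-beta 1, 2 and 3, against 4.63, 4.58 and 5.16 on controls 1, 2 and 3. Every IFN-beta array lay above every control, and control 3 was the highest of the controls. Neu1 rose 1.73-fold, a log2 fold change of 0.79 ± 0.22 (SE, adjusted p = 0.0402, limma). It was 0.97 without control 3 (adjusted p = 0.00434) and 0.42 against control 3 alone (adjusted p = 0.341), and omitting control 3 was the single omission that kept the call (adjusted p up to 0.154 otherwise).

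Galc, the galactosylceramidase that degrades galactosylceramide and psychosine, had the largest change of the 35 genes in the fit over all controls. Its probe (chromosome 12, 99441131 to 99441190) stood at -1.96, -2.33 and -3.43 on the IFN-beta arrays, against -1.02, -1.13 and -0.39 on controls 1, 2 and 3. Each IFN-beta array was below each control, and IFN-beta 3 was far below the other IFN-beta arrays. The log2 fold change was -1.73 ± 0.39 (adjusted p = 0.0207), a signal of 0.302 times that of the controls. Its size depended on how background was handled, with a log2 fold change of -0.86 under normexp background correction. Unlike that of Npc2 or Neu1, the difference was larger against control 3 alone (-2.19, adjusted p = 0.0657) than without it (-1.5, adjusted p = 0.0311). The call was lost without IFN-beta 2 (adjusted p = 0.054) and kept without each other array.

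Lgmn, the asparaginyl endopeptidase that activates several cathepsins, had the lowest adjusted p of the hydrolases that did not pass. It was at 7.58, 7.46 and 7.64 on the IFN-beta arrays and at 6.88, 6.76 and 7.22 on the controls, so that the groups did not overlap. Its log2 fold change was 0.61 ± 0.18 (adjusted p = 0.0519), or 0.74 without control 3 (adjusted p = 0.0045) and 0.34 against control 3 alone. Gaa, which degrades glycogen, was at 4.76, 4.82 and 4.98 with IFN-beta and at 4.69, 4.49 and 4.45 in controls, again with groups apart but a log2 fold change of only 0.31 ± 0.16 (adjusted p = 0.204), or 0.27 without control 3 and 0.40 against control 3 alone.

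The remaining 12 hydrolases had log2 fold changes between -0.32 and 0.30, with adjusted p of 0.222 or more, and overlapping groups. They included enzymes of sphingolipid breakdown, Smpd1 (acid sphingomyelinase, -0.32 ± 0.17), Asah1 (acid ceramidase, -0.16 ± 0.20), Hexa (the alpha subunit of beta-hexosaminidase, 0.23 ± 0.18), Gla (alpha-galactosidase A, 0.25 ± 0.17) and Glb1 (beta-galactosidase, 0.30 ± 0.20). Glb1 was called without control 3 (0.50, adjusted p = 0.0138) but was at -0.08 against control 3 alone. Enzymes of glycan breakdown were Gusb (beta-glucuronidase, -0.14 ± 0.22), Man2b1 (alpha-mannosidase, -0.13 ± 0.20), Naglu (alpha-N-acetylglucosaminidase, 0.22 ± 0.20) and Arsb (arylsulfatase B, -0.01 ± 0.21). The lipase Lipa, which hydrolyses cholesteryl esters and triglycerides, was at -0.14 ± 0.24. The peptidase Tpp1 was at 0.21 ± 0.20 and Ppt1, which removes fatty acids from proteins, at 0.10 ± 0.17.

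For Gusb, Lipa, Man2b1 and Asah1, control 3 was the highest of all 6 arrays. Lipa, for example, was at 4.79, 4.85 and 5.16 on the IFN-beta arrays, against 4.92, 4.77 and 5.53 on controls 1, 2 and 3. Against control 3 alone these 4 genes lay between -0.60 and -0.49, and without control 3 between 0.02 and 0.09. The small negative values of their representing probes over all controls therefore rested on control 3. A second Asah1 probe was at -0.44 over all controls and still negative without control 3 (-0.20). A second Gusb probe was positive, at 0.60 over all controls and 0.12 against control 3 alone. Control 3 was above all IFN-beta arrays for 12 of the 35 genes, against 41.5% of all genes.

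On the probes that represent them, all 3 lumenal cofactors had groups that did not overlap, with IFN-beta above. Of the 3, 1 passed the test, Npc2. Over all genes 23.4% had groups apart in that direction and 11.8% were called higher. Npc2 binds cholesterol in the lumen and hands it to the membrane transporter Npc1. Its probe (chromosome 12, 86097947 to 86098006) was at 6.72, 6.76 and 6.79 on the IFN-beta arrays, against 5.64, 5.62 and 6.21 on controls 1, 2 and 3. The IFN-beta arrays were nearly equal (SD 0.04) and control 3 lay between them and the other controls. Npc2 rose 1.91-fold, a log2 fold change of 0.93 ± 0.20 (adjusted p = 0.0179), the highest among the 35 genes. It was 1.13 without control 3 (adjusted p = 6.56e-04), 0.55 against control 3 alone (adjusted p = 0.154) and 0.90 within the slide that held the 3 controls and IFN-beta 1. It stayed called when control 3 or IFN-beta 1 was omitted and not when any other array was (adjusted p up to 0.0821).

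Psap, the precursor of the saposins that present sphingolipids to their hydrolases, was at 6.64, 7.37 and 7.01 on the IFN-beta arrays and at 6.11, 5.90 and 6.52 on the controls. Its log2 fold change was 0.83 ± 0.25 (adjusted p = 0.0535), or 1.0 without control 3 (adjusted p = 0.0148) and 0.48 against control 3 alone. Grn encodes progranulin, a secreted and lysosomal protein that is cleaved into granulins. It was at 8.61, 8.67 and 8.63 with IFN-beta, against 7.91, 7.84 and 8.37 in controls, a log2 fold change of 0.60 ± 0.19 (adjusted p = 0.0624). On these probes both genes lay just outside the threshold. Another Grn probe was lower on every IFN-beta array (7.28, 7.31 and 7.15) than on any control (7.58, 7.49 and 8.01). The direction for Grn therefore depended on the probe.

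**Figure D3:**
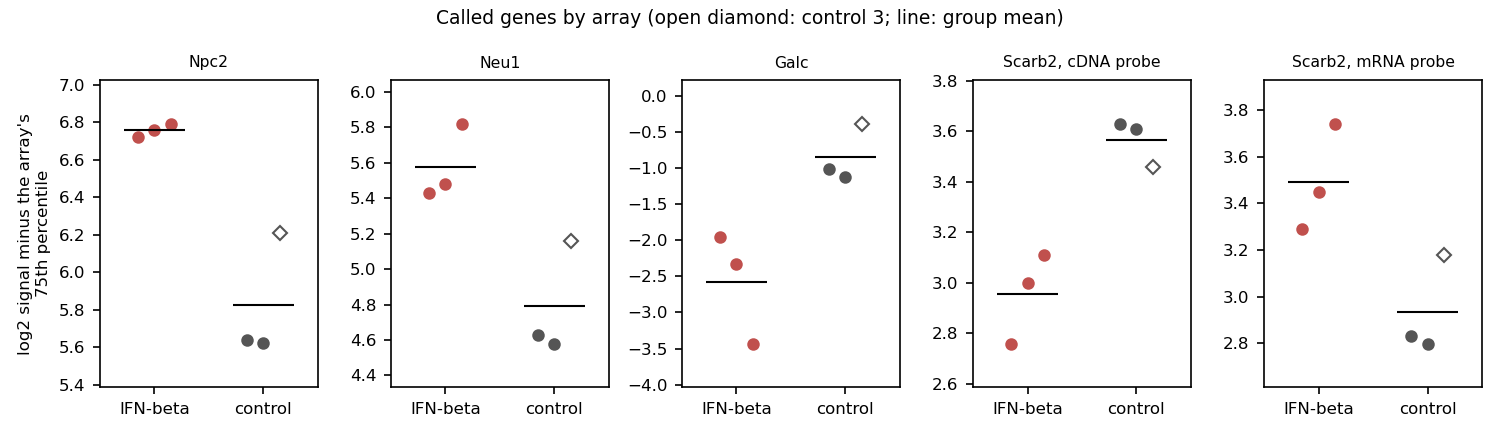
Scaled log2 signal (75th percentile of each array at 0) for the probes of Npc2, Neu1, Galc and Scarb2 (2 probes) on each array, with IFN-beta left and control right, lines at group means and an open diamond for control 3. Control 3 lies closer to the IFN-beta arrays than controls 1 and 2 do for Npc2 and Neu1, and farther from them for Galc. The 2 Scarb2 probes move in opposite directions.

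Of the 6 membrane proteins, Scarb2 fell and the other 5 did not pass the test, with positive log2 fold changes from 0.28 to 0.55. Scarb2 encodes LIMP-2, an abundant glycoprotein of the lysosomal membrane that also serves as a sorting receptor. The probe that represents it, designed on a cDNA (chromosome 5, 92870592 to 92870651), was at 2.76, 3.0 and 3.11 on the IFN-beta arrays, against 3.63, 3.61 and 3.46 on controls 1, 2 and 3. Its log2 fold change was -0.61 ± 0.17 (adjusted p = 0.0399), with -0.51 against control 3 alone (adjusted p = 0.236) and -0.67 without control 3 (adjusted p = 0.0116). Omitting any single array but control 3 ended the call (adjusted p up to 0.166). A second probe, designed on the RefSeq mRNA (chromosome 5, from 92877571 to 92878904, a span longer than the probe), went the other way. It was at 3.29, 3.45 and 3.74 with IFN-beta and at 2.83, 2.80 and 3.18 in controls, a log2 fold change of 0.56 ± 0.19 (adjusted p = 0.0756 over all probes). The direction for Scarb2 therefore depended on the probe, and the fall is that of 1 probe.

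Lamp1 and Lamp2, the major glycoproteins of the lysosomal membrane, did not pass the test. Lamp1 was at 7.90, 7.89 and 7.82 on the IFN-beta arrays and at 7.24, 7.30 and 7.69 on the controls, a log2 fold change of 0.46 ± 0.18 (adjusted p = 0.111), although the groups did not overlap. Lamp2 was at 0.28 ± 0.23 (adjusted p = 0.426) and lay on the other side of 0 against control 3 alone (-0.16). The tetraspanin Cd63 was at 7.69, 7.67 and 7.78 with IFN-beta, against 7.2, 7.17 and 7.48 in controls (0.43 ± 0.16, adjusted p = 0.103). Npc1, which exports cholesterol from the lysosome, was at 0.55 ± 0.24 (adjusted p = 0.138) and the calcium channel gene Mcoln1 at 0.49 ± 0.23 (adjusted p = 0.162). These 5 genes were all called higher without control 3 (adjusted p from 0.00647 to 0.0408), as were 33.1% of all genes, but against control 3 alone their values were between -0.16 and 0.23.

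None of the 8 pump genes passed the test, and all 8 had positive log2 fold changes, from 0.04 to 0.80, with a median of 0.43. The pump joins a membrane-embedded V0 sector, through which protons pass, to a cytosolic V1 sector that hydrolyses ATP. Atp6v0c, which encodes the main proteolipid of the V0 ring, was at 6.26, 7.01 and 6.79 on the IFN-beta arrays, against 5.8, 5.71 and 6.15 on the controls. The groups did not overlap, and the log2 fold change was 0.80 ± 0.24 (adjusted p = 0.0518), or 0.93 without control 3 (adjusted p = 0.0202) and 0.54 against control 3 alone (adjusted p = 0.364). Atp6v0a1, for the a1 subunit of V0, was at 0.30 ± 0.21, and Atp6v0b, for another proteolipid, at 0.04 ± 0.22.

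In the V1 sector, Atp6v1h, a regulatory subunit, was at 5.15, 4.97 and 5.18 with IFN-beta and at 4.29, 4.29 and 4.83 in controls (0.63 ± 0.20, adjusted p = 0.0645). Atp6v1c1 (0.52 ± 0.26), Atp6v1b2 (0.49 ± 0.24) and the catalytic subunit gene Atp6v1a (0.27 ± 0.26) had overlapping groups, and so did the accessory gene Atp6ap1 (0.37 ± 0.21). Atp6v1a was at 5.97, 6.04 and 6.30 with IFN-beta, against 5.57, 5.53 and 6.38 in controls, so that control 3 was the highest array. Without control 3, 6 of the 8 pump genes were called higher, with a median of 0.64, where 33.1% of all genes were called higher. Against control 3 alone the median was -0.01, with 4 positive and 4 negative values and 0 called, and within slide 1 it was 0.24.

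Several probes per gene gave a further view. Of 76 probes for the 35 genes, 70 passed the filter, and 22 genes had more than 1 such probe. The probes of 13 of these genes all had the same sign and those of 9 differed in sign. When every probe was fitted on its own, 12 of the 70 were called higher (17.1%) and 2 lower (2.86%), whereas over all tested probes 13.7% were called higher and 7.83% lower. The 2 lower were those of Galc and Scarb2. Probes called higher represented 11 genes.

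Among the 22 genes, Grn had the widest span between probes. Its 3 probes, all on the RefSeq mRNA, gave log2 fold changes of 0.60 ± 0.19, 1.33 ± 0.34 and -0.45 ± 0.19. The second of these was at 4.22, 5.51 and 5.09 on the IFN-beta arrays, against 3.46, 3.39 and 3.99 on the controls, and was called (adjusted p = 0.0294), while the third was not (adjusted p = 0.127). For Arsb, the dimmer of 2 probes rose by 1.08 ± 0.25 (adjusted p = 0.0201) and was 1.60 against control 3 alone, whereas the brighter stood at -0.01. Lamp2 had a dimmer probe, designed on an Ensembl transcript, that rose by 0.98 ± 0.19 (adjusted p = 0.0104), with 0.72 against control 3 alone. Both other Npc1 probes rose, by 0.90 ± 0.17 (adjusted p = 0.00969) and 0.84 ± 0.25, and were 0.77 and 0.50 against control 3 alone. Dimmer probes of Gaa (0.64 ± 0.16) and Glb1 (0.81 ± 0.22) were also called higher where the representing probe was not. These called probes of Arsb, Lamp2, Npc1, Gaa and Glb1 were dim, with levels from -3.81 to 1.12. Over all genes, the median log2 fold change was 0.31 without the filter on dim probes and 0.10 with it. Whether dimness bears on the rises of these probes was not tested. Positions of probes within exons, introns or untranslated regions were not assigned.

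**Figure D4:**
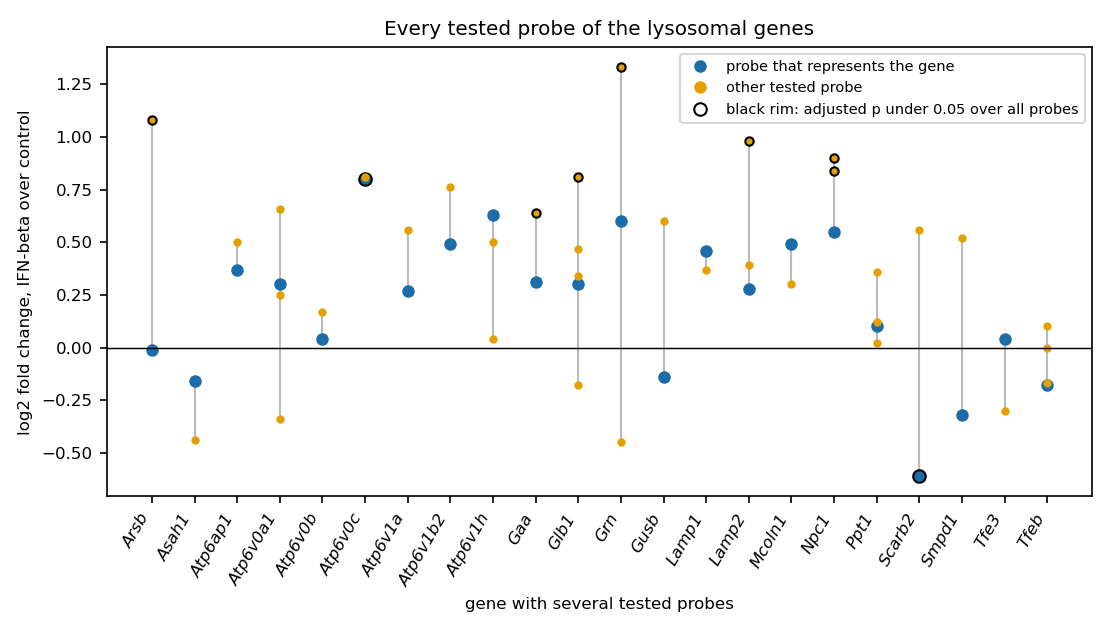
Log2 fold change of IFN-beta over control for every tested probe of the 22 genes with more than 1, with the representing probe in blue, others in orange, and a black rim where the probe passed the test over all probes. The probes of Scarb2, Grn and Arsb are the farthest apart, up to 1.33 and down to -0.61.

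The rest of the lysosomal system was followed in 6 further lists of 150 genes, of which 144 were tested. Of these, 14 rose and 13 fell, a share of 18.8% against 19.8% of all genes, with a median of 0.18. Without control 3, 56 of the 144 were called higher and 17 lower, where 33.1% and 15.1% of all genes were. Against control 3 alone the median of the 144 was -0.13, and -0.10 for all genes. The other pump genes matched the members in having none called: 0 of 11 tested, with a median of 0.26 and, without control 3, 3 higher.

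Of 32 other hydrolases and their cofactors, 4 rose and 8 fell, with a median of -0.11. The share called was 37.5%, against 19.8% of all genes (11.8% higher and 8.04% lower). Without control 3, 7 were called higher and 9 lower, where 33.1% and 15.1% of all genes were. Against control 3 alone the median was -0.33, and -0.10 for all genes. Hyal1 (a hyaluronidase, -1.14 ± 0.18, adjusted p = 0.00521), Pld3 (a phospholipase D family member with exonuclease activity, -0.97 ± 0.16, adjusted p = 0.00567) and Gm2a (the activator of GM2 ganglioside breakdown, -0.91 ± 0.17, adjusted p = 0.0103) had the lowest p among those that fell. Hyal1 stood at 1.59, 1.62 and 1.99 on the IFN-beta arrays, against 2.84, 3.02 and 2.76 on controls 1, 2 and 3, and Hyal1, Pld3 and Gm2a were at -1.03, -1.05 and -1.08 against control 3 alone. Among those that rose was Aga, aspartylglucosaminidase, with a log2 fold change of 0.81 ± 0.21 (adjusted p = 0.0328) and of 0.55 against control 3 alone (adjusted p = 0.271).

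Of 34 other membrane proteins, 5 rose and 1 fell (17.6% called, against 19.8% of all genes). Without control 3, 16 were called higher and 3 lower, where 33.1% and 15.1% of all genes were. The median against control 3 alone was -0.08. Slc15a3, a lysosomal transporter of histidine and bacterial peptides, rose 2.99-fold (1.58 ± 0.21, adjusted p = 0.00225). It was at 4.23, 4.66 and 4.70 with IFN-beta, against 2.9, 2.73 and 3.21 in controls, and at 1.32 against control 3 alone (adjusted p = 0.033), and its call was kept without any 1 array. The nucleoside transporter Slc29a3 rose by 1.38 ± 0.21 (adjusted p = 0.00438) and the sialomucin Cd164 by 0.92 ± 0.18 (adjusted p = 0.0124). Tmem106b fell, with a log2 fold change of -1.15 ± 0.20 (adjusted p = 0.00687), although 1 of its 2 probes had the opposite sign.

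In the list for sorting to lysosomes, Nagpa, which uncovers the mannose 6-phosphate tag, rose by 0.79 ± 0.19 (adjusted p = 0.0243) and the sorting receptor gene Sort1 was at -0.85 ± 0.17 (adjusted p = 0.0137, 1 of 3 probes of opposite sign), with 21 of 23 genes not called. Of 20 genes for nutrient sensing and for the relatives of Tfeb, 3 rose and 0 fell: Rragd, a GTPase of mTORC1 activation (1.48 ± 0.23, adjusted p = 0.00504), Tfec, of the same family as Tfeb (0.92 ± 0.23, adjusted p = 0.0305), and Fnip2, a folliculin partner (0.81 ± 0.23, adjusted p = 0.0465). Rragd was at 1.92, 1.93 and 2.20 with IFN-beta, against 0.37, 0.23 and 1.0 in controls, and was 1.02 against control 3 alone (adjusted p = 0.0433). The share called was 8.7% in the sorting list and 15% in the nutrient list, against 19.8% of all genes. Without control 3, 13 sorting genes were called higher and 1 lower, and 8 and 0 nutrient genes, where 33.1% and 15.1% of all genes were. Medians against control 3 alone were -0.08 and -0.18. Of 24 autophagy genes, 1 rose and 3 fell (16.7% called). Without control 3, 9 were called higher and 4 lower, against the same 33.1% and 15.1% of all genes. Their median against control 3 alone was -0.06. The cargo receptor gene Sqstm1 rose by 0.90 ± 0.22 (adjusted p = 0.0257), while Wipi1 (-1.07 ± 0.18, adjusted p = 0.00639), Map1lc3a (-1.49 ± 0.31, adjusted p = 0.0164) and the kinase gene Ulk1 (-0.55 ± 0.16, adjusted p = 0.048) fell.

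All 17 genes named outside the 35 were called without control 3, where 48.2% of all genes were. The calls of 7 of the 17 were kept whichever single array was omitted, and these were Wipi1, Rragd, Hyal1, Pld3, Slc15a3, Slc29a3 and Tmem106b. The 17 were picked from the called genes for their low p in the fit over all controls. Being called again on most of the same arrays is therefore no independent test of them. Against control 3 alone, Slc29a3 was at 0.99, Cd164 at 0.65 and Tmem106b at -0.89. Nagpa was at 0.47 and Sort1 at -0.87 there. For Tfec, Fnip2 and Sqstm1 the values were 0.43, 0.33 and 0.54, and for Wipi1, Map1lc3a and Ulk1 they were -1.02, -0.74 and -0.65.

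**Figure D5:**
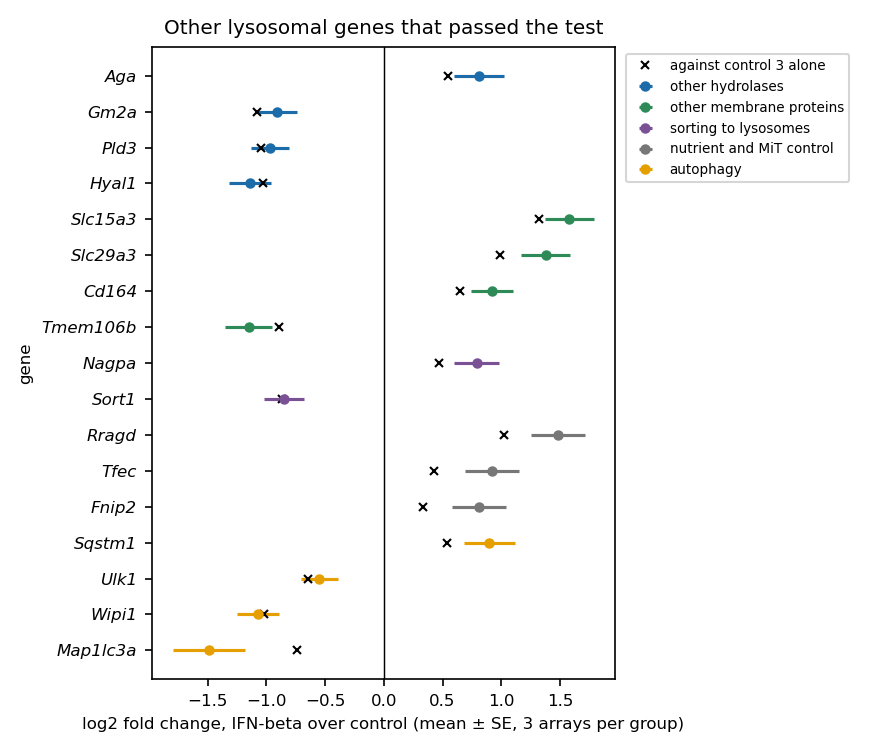
Log2 fold change of IFN-beta over control (points with standard errors, 3 arrays per group) for the genes outside the 35 that are named in the text, from 5 lists, with the value against control 3 alone as a cross. Hyal1, Pld3, Gm2a, Wipi1 and Sort1 lie at similar values against control 3 alone, whereas Tfec, Fnip2 and Map1lc3a lie nearer to 0.

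The arrays sat on 2 slides, slide 1 with the 3 controls and IFN-beta 1 and slide 2 with IFN-beta 2 and 3. In a fit that took slide as a block, where the comparison rests on IFN-beta 1, limma called 0 of the 35 genes (2 at an unadjusted p under 0.05), against 5.33% of all genes (3.41% higher and 1.92% lower). Their median was 0.17 in that fit and within slide 1. Within slide 1 the log2 fold change was 0.64 for Neu1, 0.90 for Npc2, -1.11 for Galc and -0.81 for Scarb2.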

How the data were processed

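RNA of 6 monocyte samples was hybridised to single-colour Agilent arrays. The authors read spots with Agilent Feature Extraction 12.0.3.1, per the file headers, and their deposited values are a processed intensity for each spot, not normalized between arrays. The authors also deposited a table of log2 values, and their normalization is not given in the sources used here. Its columns correlated with their own arrays (r from 0.996 to 0.999) and had medians of 4.82 to 4.83. It served as an alternative.

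Outlier spots (135 to 174 per array) were left out, spots of a probe were averaged, and log2 of the processed signal minus the array's 75th percentile was analysed. That percentile was 236.4 to 244.4 on IFN-beta arrays and 305.4 to 549.7 on controls; 49.0% to 52.5% and 52.5% to 63.9% of probes were well above background, and 0 were saturated. Probes well above background on all arrays of at least 1 group were tested (29794). A gene was represented by its brightest tested probe. Symbols came from the files, updated by accession through RefSeq (GRCm38.p6). Probe positions are those of the files (mm9). IFN-beta was set against control with limma 3.58.1 (R 4.3.3) by lmFit and eBayes without covariates, with Benjamini-Hochberg adjustment over 19500 genes, and checked on simulated data. Members, lists and alternatives were chosen with earlier results of these data known. The named genes are the 35 members and, of each other list, up to 3 called genes per direction with the lowest p. Some genes chosen by that rule are not reported here. Alternatives were quantile, normexp (offset 50) and spike-in normalization, the authors' log2 values, other filters and probe rules, other eBayes settings, slide or replicate as a block, and leaving out arrays.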

Additional observations from a re-analysis of the deposited data

How the results depend on the processing

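The median over the 35 genes, 0.28, ran from -0.05 to 0.47 over the alternatives chosen at the start, and its sign turned with spike-in scaling (-0.05, with -0.23 for all genes) and against control 3 alone (-0.03). An added scaling on the median of 10 monocyte markers, chosen after the data were seen, gave -0.23 (-0.41 for all genes), and 4 of those markers were themselves called. The number of members called higher, 2, was 3 with quantile normalization, 5 with normexp, 4 in the deposited table, 5 with a filter on all 6 arrays, 5 with the mean of all probes, 5 with every probe on its own, and 7 with trend and robust eBayes. It was 0 with spike-in scaling, 0 without a filter, 0 with slide as a block, 0 within slide 1, 0 against control 3 alone and 1 with the marker scaling. The number called lower, 2, was 0 without a filter, 1 with the mean of all probes, 0 with slide as a block, 0 within slide 1, 0 against control 3 alone and 11 with the marker scaling. Of the other lysosomal genes, 14 higher and 13 lower, the counts were 3 and 4 without a filter, 1 and 2 with slide as a block, 0 and 0 within slide 1, 3 and 7 against control 3 alone and 6 and 55 with the marker scaling, and 3 were higher with spike-in scaling. Leaving out 1 array at a time gave 0 to 17 members higher and 0 to 2 lower, a median of 0.19 to 0.47, and 3 to 56 other genes higher and 5 to 17 lower. The value with 17 and 56 is that without control 3. Over all genes the number called was 2301 higher and 1567 lower, or 6459 and 2938 without control 3, 1015 and 3055 with spike-in scaling and 3837 and 1651 with normexp. The cause of these moves was not tested.

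Whether the replicate numbers pair the arrays is not known. Deviations of same-numbered arrays correlated at 0.07, 0.02 and 0.07, and those of other pairs at -0.09 to 0.01. With control 3 apart from controls 1 and 2, such values cannot show whether arrays were paired. With the replicate block, 2 members were called higher (Npc2 and Neu1) and 0 lower, so the calls of Galc and Scarb2 were lost there.

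Control 3 minus controls 1 and 2 had a median of 0.53 over the 35 genes, 0.21 with quantile normalization, 0.41 with normexp, 0.65 with spike-in scaling and 0.26 in the deposited table.

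Signs turned for members that were not called in the fit reported. Against control 3 alone these were Glb1 (-0.08), Hexa (-0.02), Tpp1 (-0.11), Naglu (-0.05), Lamp2 (-0.16), Atp6v0a1 (-0.07), Atp6v0b (-0.38), Atp6v1a (-0.28), Atp6v1c1 (-0.03) and Tfe3 (-0.31). With spike-in scaling they were Gaa (-0.02), Gla (-0.09), Glb1 (-0.03), Hexa (-0.10), Tpp1 (-0.12), Ppt1 (-0.23), Naglu (-0.11), Lamp2 (-0.05), Atp6v0a1 (-0.04), Atp6v0b (-0.29), Atp6v1a (-0.06) and Tfe3 (-0.30). In the deposited table they were Ppt1 (-0.02), Arsb (0.15), Grn (-0.06), Atp6v0b (-0.07) and Tfe3 (-0.07), with quantile normalization Ppt1 (-0.05), Arsb (0.15), Atp6v0b (-0.11) and Tfe3 (-0.11), and with normexp Ppt1 (-0.04), Arsb (0.25) and Tfe3 (-0.03). With the mean of all probes they were Gusb (0.23), Smpd1 (0.10), Arsb (0.54, adjusted p = 0.0438) and Tfe3 (-0.13), and with slide as a block or within slide 1 Atp6v0b (-0.14). The marker scaling gave Gaa (-0.20), Gla (-0.26), Glb1 (-0.21), Hexa (-0.28), Tpp1 (-0.30), Ppt1 (-0.41), Naglu (-0.29), Lamp1 (-0.05), Lamp2 (-0.23), Cd63 (-0.08), Mcoln1 (-0.02), Atp6v0a1 (-0.21), Atp6v0b (-0.47), Atp6v1a (-0.24), Atp6v1b2 (-0.02), Atp6ap1 (-0.14) and Tfe3 (-0.47). With 1 array left out, values ran from -0.11 to 0.17 for Arsb, -0.09 to 0.25 for Atp6v0b, -0.05 to 0.21 for Tfe3, -0.29 to 0.09 for Lipa, -0.25 to 0.07 for Gusb, -0.24 to 0.05 for Man2b1 and -0.26 to 0.02 for Asah1. Neu1, Npc2 and Galc kept their sign in every alternative run. Scarb2 kept it for its representing probe, was at -0.03 with the mean of both probes and at 0.56 for the other probe on its own.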
